A study of Homo sapiens with 8 samples.

Results

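Antisense RNA genes are named after the gene on the opposite DNA strand, with the ending -AS and a number. On arrays of LNCaP cells given siRNA against GATA2 or a control siRNA, 218 such genes were measured out of 28876 genes tested. They were selected on their symbol and on signal: the brightest probe of the gene had to be well above background, a flag that the scanner software sets, on at least 4 of the 8 arrays. The array carried 297 antisense genes, of which 52 had a mean signal under 3 on the log2 scale and were not tested, and 27 of the 245 tested were above background on fewer than 4 arrays. Of the 218 genes, 131 were above background on all 8 arrays and 87 on 4 to 7 arrays. Since detection is part of the selection and was better on the siGATA2 arrays, a gene could enter through the group in which it was high. Detection favoured the siGATA2 arrays in 79 genes, which were above background on 4 siGATA2 arrays and on fewer than 4 siControl arrays. Not all of these were high on the siGATA2 arrays: ENTPD1-AS1, for example, was lower there, by a log2 difference of -1.41. By contrast, 0 genes were above background on no siGATA2 array. At the border of the selection, 10 genes above background on exactly 4 arrays had mean log2 signals from 3.32 to 4.35 and differences between groups from -0.54 to 2.30. The 4 genes above background on 3 arrays, which were left out, had means from 3.39 to 3.79 and differences from -1.11 to 0.45. Over all 27 genes left out, the median difference was -0.51, with 2 lower and 0 higher at an adjusted limma p under 0.05. Both of these, TRHDE-AS1 and SNAP25-AS1, were above background on no siGATA2 array.

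Antisense transcripts arise in several ways. Some start next to the promoter of a coding gene and run away from it, so that a shared promoter region serves both genes, and others start inside or beyond the coding gene and run through its exons. Some are known to act on their neighbour, by bringing chromatin regulators to the locus or by pairing with the sense RNA, some act elsewhere in the cell as binding partners of RNAs and proteins, and for most no role is established. GATA2 is a zinc finger transcription factor that opens chromatin for other transcription factors in prostate cells.

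LNCaP is an established line from a lymph node metastasis of human prostate cancer, grown in RPMI medium with serum. The cells were transfected with oligofectamin and 30 nM of either a single siRNA against GATA2, labelled siGATA2, or a scrambled siRNA, labelled siControl, and their RNA was taken after 72 h. Each group had 4 arrays. The comparison asks which transcripts differ after GATA2 silencing. GATA2 itself, measured by a single probe, was 12.61, 12.54, 11.57 and 11.40 on siGATA2 arrays 1 to 4 and 11.74, 11.28, 11.09 and 11.29 on siControl arrays 1 to 4 on the log2 scale, a difference of 0.68 (standard error 0.313, limma adjusted p = 0.155). No fall of the targeted RNA was therefore seen, and every direction given here rests on the labels of the arrays. The 9 prostate luminal markers examined, among them KLK3 and HOXB13, were above background on all 8 arrays. PTPRC, VWF and COL1A1, markers of leukocytes, endothelium and fibroblasts, also had signal on all 8 arrays. PECAM1 was above background on 1 array and COL1A2 on 2. CD3E (leukocytes) was above background on 4 siGATA2 and 3 siControl arrays, and DCN (fibroblasts) on 4 and 2. Of basal epithelium, KRT14 was so on 4 and 3 and TP63 on 2 and 1. PTPRC differed between groups by 0.88 and VWF by -0.96 (limma adjusted p = 0.00142 and 0.00154). COL1A1 differed by -0.13 (limma adjusted p = 0.804). The part of these markers in the results was not tested. In RNA from whole cultures, a lower signal from each cell and fewer cells that carry the RNA cannot be told apart.

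Before the results, the arrays have to be described, because they were not equally spread. Over the 131 antisense genes above background on all arrays, the difference between siGATA2 arrays 1 and 2 had a standard deviation of 0.138 on the log2 scale, and that between siGATA2 arrays 3 and 4 one of 0.136. Between these pairs it was 0.717 to 0.757. Between a siGATA2 and a siControl array it was 0.751 to 1.07. The siGATA2 pairs thus lay about as far from each other as the nearest arrays of different groups. Among the siControl arrays, 2 and 4 differed by 0.134 and array 3 from each of them by 0.289, while array 1 differed from the other siControl arrays by 0.546 to 0.587. For comparison, repeated spots of a probe on the same array differed by 0.095 to 0.291. The siGATA2 arrays thus fell into close pairs, 1 with 2 and 3 with 4, whose members differed by about as much as spots on an array. The design text of the series calls the arrays biological replicates, and whether a close pair stems from a single culture cannot be told from the files. The p-values below count 4 arrays per group. If the arrays of a pair are not separate cultures, these p-values are too small, and results are therefore also given with each siGATA2 pair averaged, which leaves 2 siGATA2 samples against 4 siControl arrays. Background differed too: 214 to 218 of the 218 antisense genes were above background on each siGATA2 array and 210 and 203 on siControl arrays 2 and 4, but 155 on siControl array 1 and 134 on siControl array 3.

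**Figure D1:**
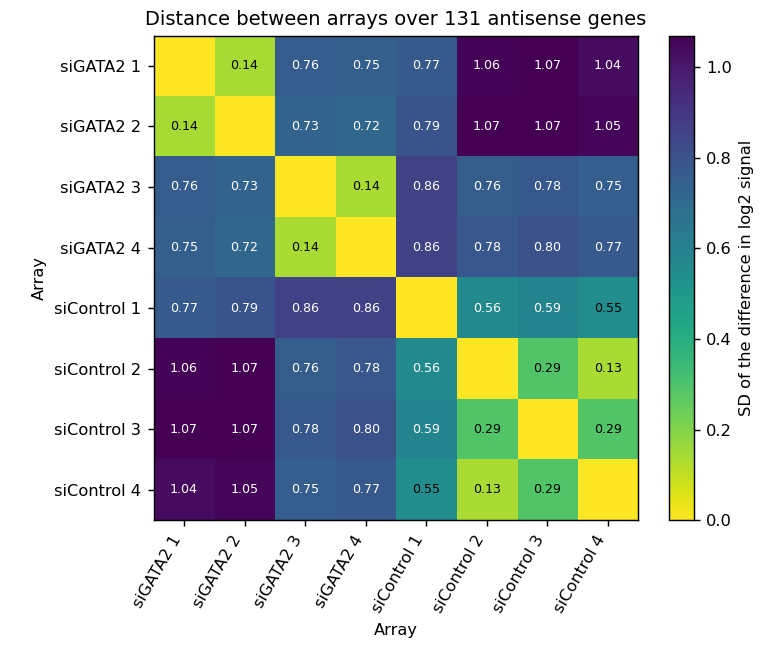
Standard deviation of the difference in log2 signal between every 2 arrays, over the 131 antisense genes above background on all 8 arrays; darker squares are larger distances. siGATA2 arrays 1 and 2 (0.14), siGATA2 arrays 3 and 4 (0.14) and siControl arrays 2 and 4 (0.13) were the closest.

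The start regions of some antisense genes are shown because the study targeted a GATA factor and because several antisense genes share their start region with the sense gene. RefSeq sequences (GRCh38.p14) of 250 bases before to 50 bases after the start were at hand for 164 of the 218 genes. Both strands were searched for the 6-letter GATA words AGATAA and TGATAA, and for AGATAG and TGATAG. At least 1 of them stood in 26 of the 164 antisense start regions (15.9%) and in 6967 of 27305 start regions of all genes (25.5%). The antisense start regions had a median GC content of 62.8%, against 58.3% for all genes. By the calls given below, a GATA word stood in 2 of 20 antisense genes called lower, 4 of 30 called higher and 20 of 114 not called. The 6 called genes with a GATA word were PDCD4-AS1 and RBM15-AS1, which were lower on the siGATA2 arrays, and ZBED5-AS1, ZNF436-AS1, C1QTNF1-AS1 and TSC22D1-AS1, which were higher. A match of letters is not a binding site, and its absence from this window says nothing about GATA2. Of the other words searched, CACGTG was found in 11.6% of the antisense start regions and 7.43% of all, CCAAT in 34.8% and 35.7%, TATAAA in 2.44% and 12%, TTTGAA in 6.71% and 15.4%, and TTTCGCGC or TTTGGCGC in 0.61% and 1.18%. Start regions of 4 of the 6 genes follow, in the direction of the antisense gene, with the GATA words in capitals. They lie at chr10:110870855-110871154 on the minus strand for PDCD4-AS1, chr1:110339122-110339421 on the minus strand for RBM15-AS1, chr11:10857967-10858266 on the plus strand for ZBED5-AS1 and chr1:23368721-23369020 on the plus strand for ZNF436-AS1.
PDCD4-AS1: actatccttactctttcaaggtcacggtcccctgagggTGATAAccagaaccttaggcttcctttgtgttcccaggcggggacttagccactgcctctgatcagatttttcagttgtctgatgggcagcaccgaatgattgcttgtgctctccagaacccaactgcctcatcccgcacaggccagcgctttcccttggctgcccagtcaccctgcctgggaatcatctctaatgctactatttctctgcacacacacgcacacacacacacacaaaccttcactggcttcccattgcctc
RBM15-AS1: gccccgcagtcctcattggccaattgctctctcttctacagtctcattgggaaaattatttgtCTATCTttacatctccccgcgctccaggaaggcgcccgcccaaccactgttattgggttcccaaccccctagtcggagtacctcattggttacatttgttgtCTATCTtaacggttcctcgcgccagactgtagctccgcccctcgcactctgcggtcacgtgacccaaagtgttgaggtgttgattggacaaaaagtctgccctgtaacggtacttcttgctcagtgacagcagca
ZBED5-AS1: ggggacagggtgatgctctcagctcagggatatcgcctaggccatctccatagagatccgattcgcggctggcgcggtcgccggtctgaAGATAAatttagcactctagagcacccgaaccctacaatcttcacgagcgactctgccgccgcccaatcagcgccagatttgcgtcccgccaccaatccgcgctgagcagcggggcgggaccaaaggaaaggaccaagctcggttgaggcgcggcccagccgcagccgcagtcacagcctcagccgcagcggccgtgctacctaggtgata
ZNF436-AS1: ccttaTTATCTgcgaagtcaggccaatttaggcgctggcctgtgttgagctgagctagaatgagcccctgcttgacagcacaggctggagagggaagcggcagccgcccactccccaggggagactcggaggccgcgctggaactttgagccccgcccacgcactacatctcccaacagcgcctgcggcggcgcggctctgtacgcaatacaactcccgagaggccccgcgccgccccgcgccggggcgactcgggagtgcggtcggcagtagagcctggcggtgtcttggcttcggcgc

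In URB1-AS1 (chr21:32392883-32393182, plus strand), KTN1-AS1 (chr14:55580043-55580342, minus strand) and SRRM2-AS1 (chr16:2752551-2752850, minus strand), the sense gene starts within the same window and runs the other way. The starts of antisense and sense gene are 121, 115 and 38 bases apart. These regions are shown because their gene pairs gave 3 different outcomes, described below. Capitals mark the bases that belong to the sense gene, and the lower case bases begin with the stretch between the starts.
URB1-AS1: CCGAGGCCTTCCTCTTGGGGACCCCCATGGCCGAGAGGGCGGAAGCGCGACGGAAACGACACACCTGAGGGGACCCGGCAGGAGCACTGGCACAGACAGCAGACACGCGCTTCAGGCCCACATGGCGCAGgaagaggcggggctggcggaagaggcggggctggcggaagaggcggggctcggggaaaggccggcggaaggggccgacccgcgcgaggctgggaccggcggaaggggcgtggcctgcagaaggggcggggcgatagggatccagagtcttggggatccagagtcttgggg
KTN1-AS1: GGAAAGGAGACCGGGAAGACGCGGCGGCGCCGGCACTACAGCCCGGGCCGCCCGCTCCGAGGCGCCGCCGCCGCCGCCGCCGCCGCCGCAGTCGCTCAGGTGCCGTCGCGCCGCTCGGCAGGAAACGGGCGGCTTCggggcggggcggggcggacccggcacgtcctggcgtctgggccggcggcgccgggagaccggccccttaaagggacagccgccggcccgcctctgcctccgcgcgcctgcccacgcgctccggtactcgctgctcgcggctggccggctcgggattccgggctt
SRRM2-AS1: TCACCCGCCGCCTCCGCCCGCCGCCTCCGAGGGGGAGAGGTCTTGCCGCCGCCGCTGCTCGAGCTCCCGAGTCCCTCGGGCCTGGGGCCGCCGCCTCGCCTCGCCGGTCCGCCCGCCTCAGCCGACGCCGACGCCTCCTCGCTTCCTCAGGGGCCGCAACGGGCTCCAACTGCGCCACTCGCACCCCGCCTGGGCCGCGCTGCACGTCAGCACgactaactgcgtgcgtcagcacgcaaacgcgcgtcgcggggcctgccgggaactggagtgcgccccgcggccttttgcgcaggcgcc

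Of the 218 antisense genes, 22 were lower and 39 higher on the siGATA2 arrays when an adjusted limma p under 0.05 counted as a call, which left 157 without one. The lower genes made up 10.1% of the members, against 14.7% of all genes above background on at least 4 arrays, and the higher genes 17.9%, against 13.0% of those genes. By at least 2-fold, 10 antisense genes were lower (4.59%, against 7.29% of those genes) and 23 higher (10.6%, against 4.72%). The choice by detection favours high values on the siGATA2 arrays, so the genes above background on all 8 arrays are the plainer comparison. Among those 131, 20 were lower (15.3%, against 19.5% of all genes above background on all 8 arrays) and 23 higher (17.6%, against 15.0%). By at least 2-fold, 9 were lower (6.87%, against 9.57%) and 11 higher (8.4%, against 4.53%). The remaining 18 calls, 2 lower and 16 higher, came from the 87 genes that were not above background on every array. Over all genes tested, 26.4% were called in either direction. The 4 siGATA2 values lay on 1 side of the 4 siControl values in 79 of the 218 antisense genes and in 32.5% of all genes tested. All 61 called genes were among the 79, but they were chosen by their p-value, so this adds nothing to their calls. The median difference was 0.26 on the log2 scale over the 218 antisense genes and 0.16 over the 131, against 0.10 and 0.04 over all genes chosen by the same detection.

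With each siGATA2 pair averaged, an alternative chosen after the data were seen, 13 antisense genes were called lower and 16 higher, and all 29 were among the 61. Over all genes 13.5% were then called. With siControl arrays 2, 3 and 4 averaged as well, which leaves 2 samples per group, 0 antisense genes and 0 of all genes were called by limma, and 44 antisense genes had an unadjusted p under 0.05.

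**Figure D2:**
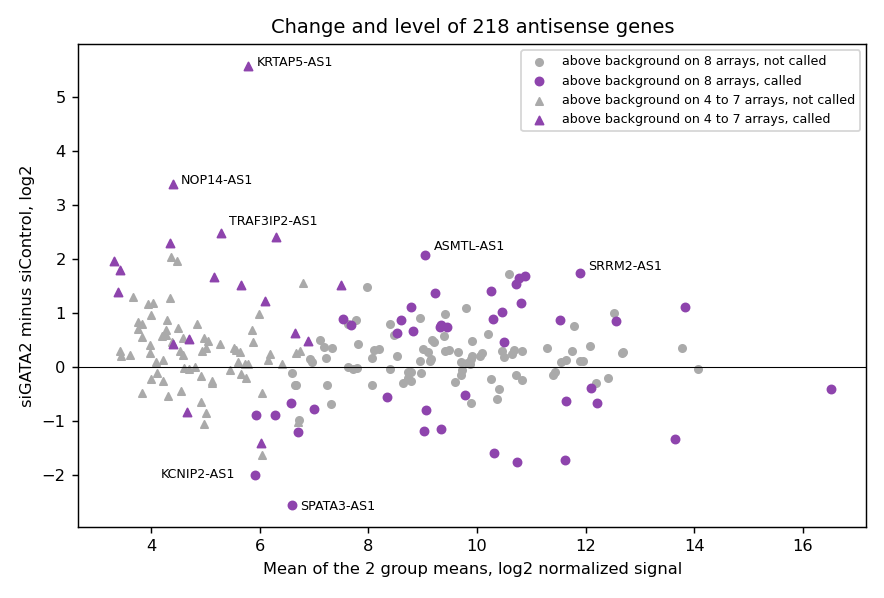
Difference in log2 signal, siGATA2 minus siControl, against the mean log2 signal for each of the 218 antisense genes; triangles are genes not above background on every array, and coloured points have an adjusted p under 0.05. The highest differences, for KRTAP5-AS1 (5.57) and NOP14-AS1 (3.38), belong to triangles whose siControl values are in part not above background, and the lowest, for SPATA3-AS1 (-2.56), to a gene above background on all arrays.

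Among called genes above background on all arrays whose groups did not overlap, the largest falls were those of SPATA3-AS1, KCNIP2-AS1, VPS9D1-AS1, CIRBP-AS1 and PDCD4-AS1. SPATA3-AS1, next to a gene named for its expression in spermatogenesis, had log2 signals of 5.19, 4.72, 5.71 and 5.62 on siGATA2 arrays 1 to 4 and 7.39, 8.04, 8.07 and 7.98 on siControl arrays 1 to 4. The groups did not overlap, and siControl array 1 was the lowest of its group. The log2 difference was -2.56 (standard error 0.256, limma adjusted p = 0.000254). KCNIP2-AS1, opposite a gene for a potassium channel interacting protein, was 5.29, 5.0, 4.90 and 4.45 against 6.98, 6.94, 6.86 and 6.93, so that the siControl arrays were nearly equal. It fell by 2.01 (standard error 0.175, limma adjusted p = 0.000134). VPS9D1-AS1, also known as MYU and described as a target of WNT and MYC signalling, was 10.33, 10.35, 9.42 and 9.32 against 11.83, 11.41, 11.72 and 11.49. Its siGATA2 pairs lay apart from each other, arrays 3 and 4 being lower than 1 and 2. The difference of the brightest probe was -1.76 (standard error 0.272, limma adjusted p = 0.00224), while a second, dimmer probe of the gene, also above background on all arrays, had 0.26 (adjusted p = 0.317 over all probes).

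CIRBP-AS1, opposite the gene of a cold-inducible RNA-binding protein, had log2 signals of 10.71, 10.64, 10.83 and 10.83 on siGATA2 arrays 1 to 4 and 12.21, 12.68, 12.39 and 12.67 on siControl arrays 1 to 4. Here the siGATA2 pairs lay close to each other, and the difference was -1.73 (standard error 0.137, limma adjusted p = 9.04e-05). PDCD4-AS1 was 9.79, 9.70, 9.26 and 9.29 against 11.26, 11.08, 11.12 and 10.98. It starts head to head with PDCD4, an inhibitor of translation initiation, and fell by 1.60 (standard error 0.155, limma adjusted p = 0.000217). EPB41L4A-AS1, a host of a small nucleolar RNA, was among the brightest antisense genes. It stood at 12.87, 12.81, 13.08 and 13.15 against 14.62, 14.33, 14.15 and 14.19, a difference of -1.35 (standard error 0.144, limma adjusted p = 0.00035). The other 4 of the 10 largest falls were TMPO-AS1 (-1.20), KTN1-AS1 (-1.20), ZBTB11-AS1 (-1.15) and NIFK-AS1 (-0.89). All 3 probes of KTN1-AS1 fell, by 1.20, 1.21 and 1.20. With siGATA2 pairs averaged, 9 of these 10 falls were still called, and ZBTB11-AS1 was not (adjusted p = 0.0732).

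By the same choice of called genes without overlap, the largest rises were those of ASMTL-AS1, SRRM2-AS1, FBXL19-AS1, ZMIZ1-AS1 and LPP-AS2. CCDC18-AS1, named after its values were seen, had a difference of 1.72 but overlapping groups and no call (limma adjusted p = 0.129). ASMTL-AS1 had log2 signals of 10.95, 11.04, 9.20 and 9.14 on siGATA2 arrays 1 to 4 and 8.89, 7.82, 7.60 and 7.76 on siControl arrays 1 to 4. The siGATA2 pairs were far apart, and arrays 3 and 4 lay only just above siControl array 1. The difference was 2.07 (standard error 0.535, limma adjusted p = 0.0239), and it was not called with the pairs averaged (adjusted p = 0.0835). SRRM2-AS1 showed the same order of arrays, 13.25, 13.36, 12.21 and 12.24 against 11.70, 10.74, 10.87 and 10.79, with a difference of 1.74 (standard error 0.349, limma adjusted p = 0.00794). FBXL19-AS1 was 11.93, 11.94, 11.55 and 11.49 against 10.33, 10.00, 9.85 and 9.97. Its rise of 1.69 (standard error 0.162, limma adjusted p = 0.00021) belonged to its brightest probe, and a second probe above background on all arrays had -0.29 (adjusted p = 0.155 over all probes). ZMIZ1-AS1 rose by 1.65, and its second probe by 0.72. The opposite gene ZMIZ1 encodes a PIAS-like transcriptional coactivator.

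LPP-AS2 and DICER1-AS1 rose on all siGATA2 arrays. LPP-AS2 was 11.01, 11.12, 11.87 and 11.89 against 10.10, 9.97, 9.78 and 9.91, so that here siGATA2 arrays 3 and 4 were the higher pair, and its difference was 1.53 (standard error 0.229, limma adjusted p = 0.0019). DICER1-AS1, which overlaps the start of the gene for the ribonuclease of microRNA processing, was 11.11, 11.14, 10.82 and 10.73 against 10.04, 9.46, 9.29 and 9.43, a difference of 1.40 (standard error 0.19, limma adjusted p = 0.00117). The other 4 of the 10 largest rises were H1-10-AS1 (1.37), DLG5-AS1 (1.19), ZBED5-AS1 (1.11) and BCL10-AS1 (1.11). BCL10-AS1 was the most even of them, at 9.13, 9.26, 9.49 and 9.46 against 8.16, 8.25, 8.23 and 8.25. Of the 20 largest changes, 16 were called with siGATA2 pairs averaged, the exceptions besides ZBTB11-AS1 and ASMTL-AS1 being ZMIZ1-AS1 (adjusted p = 0.0599) and H1-10-AS1 (adjusted p = 0.0677).

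Scaling of the arrays bears on the rises. When the arrays were scaled to their E1A spike-in probes in place of quantile normalization, the median difference of all genes moved from 0.09 to -0.43, and 8 antisense genes were called lower and 3 higher. Of the 61 calls, 11 were then made in the same direction. The 20 largest changes all kept their direction under this scaling, but all 10 rises among them lost their call. Uncalled differences near 0, such as those of CDKN2B-AS1, GATA3-AS1 and HOXA-AS3, took a negative sign. CIRBP-AS1, EPB41L4A-AS1, KCNIP2-AS1, KTN1-AS1, PDCD4-AS1, SPATA3-AS1 and VPS9D1-AS1, all falls, were called in each of the 22 settings in which arrays were not averaged.

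**Figure D3:**
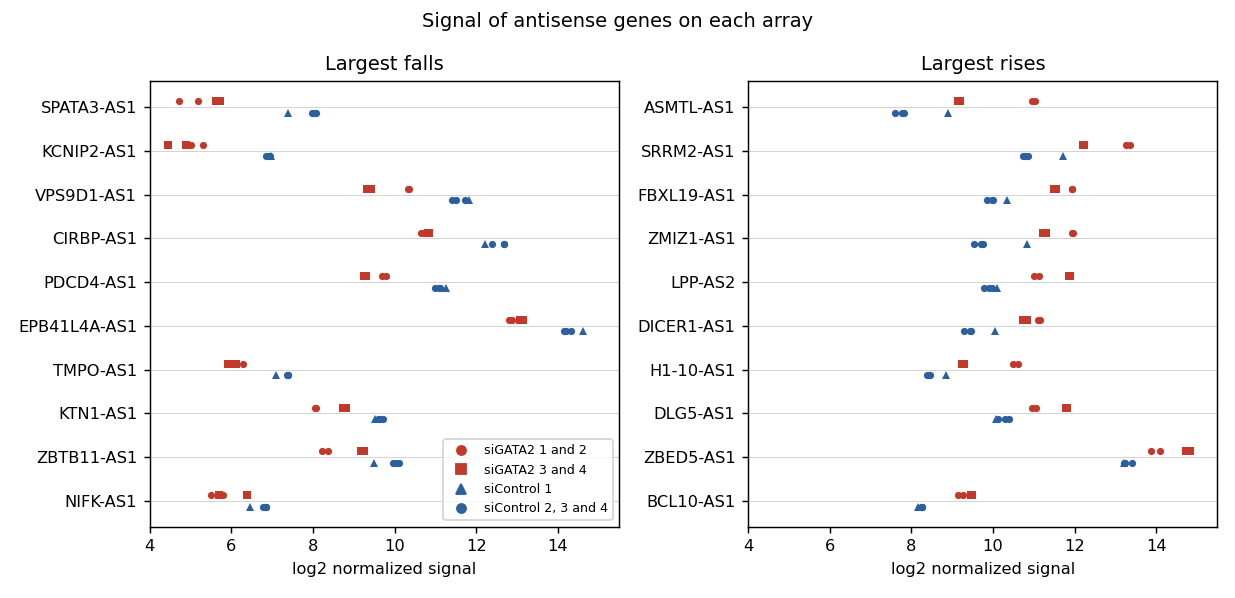
Log2 normalized signal of the 10 largest falls and the 10 largest rises among called antisense genes above background on all 8 arrays whose groups did not overlap, 1 point per array; symbols separate siGATA2 arrays 1 and 2 from 3 and 4 and siControl array 1 from the other siControl arrays. The siGATA2 pairs lie apart in many of these genes, among them ASMTL-AS1, SRRM2-AS1, H1-10-AS1, VPS9D1-AS1, ZBED5-AS1, DLG5-AS1, LPP-AS2 and KTN1-AS1.

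Larger differences were found among genes that were not above background on every siControl array. These genes were named after their values were seen, and their differences are given as a description. KRTAP5-AS1, at a cluster of keratin-associated protein genes, was 8.10, 8.97, 8.75 and 8.48 on siGATA2 arrays 1 to 4 and 2.00, 3.78, 2.14 and 4.09 on siControl arrays 1 to 4, with 2 siControl arrays above background. The difference of the means was 5.57, in which 2 of the 4 siControl values are not measured signal. The lowest values lay on siControl arrays 1 and 3, where background noise was highest. TRAF3IP2-AS1 (2.48) and LHFPL3-AS2 (2.41) were above background on 2 and 3 siControl arrays.

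For 5 antisense genes no siControl array was above background, so that only a lower bound of the rise can be given, against the lowest signal that was above background on each siControl array or the gene's own signal where that was higher. C1QTNF1-AS1 was at least 4.38-fold higher, COL18A1-AS1 at least 2.48-fold, ZNF252P-AS1 at least 2.19-fold and TSC22D1-AS1 at least 1.71-fold. TNFRSF10B-AS1 was at least 2.2-fold higher by the same bound. The fit gave adjusted p-values of 0.0344, 0.00202, 0.0165, 0.0366 and 0.0695 in this order. They compare with siControl signal that was not above background, and these genes were selected through their siGATA2 arrays, so the p-values lend the rises no support.

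Of 28 antisense RNAs listed for their published roles in cancer or gene regulation, 12 were members. VPS9D1-AS1, TMPO-AS1, MNX1-AS1 and THAP9-AS1 fell, which is 4 of 12. Of all genes above background on at least 4 arrays, 14.7% were lower and 13.0% higher. A list of 12 is small, and these shares were not compared by a test. MNX1-AS1, head to head with a motor neuron homeobox gene, was 11.80, 11.78, 11.96 and 12 on siGATA2 arrays 1 to 4 and 12.85, 12.45, 12.48 and 12.41 on siControl arrays 1 to 4, a difference of -0.66 (standard error 0.132, limma adjusted p = 0.00751). THAP9-AS1 was 7.96, 7.93, 8.09 and 8.26 against 8.88, 8.57, 8.56 and 8.46, a difference of -0.56 (standard error 0.131, limma adjusted p = 0.0159). With siGATA2 pairs averaged, neither was called (adjusted p = 0.0729 and 0.102). The other 8 did not pass the test. OIP5-AS1, known as cyrano and as a binding partner of microRNAs, was 9.70, 9.72, 10.41 and 10.45 against 10.71, 10.74, 10.62 and 10.62, with a difference of -0.60 (adjusted p = 0.0623). Its groups did not overlap, but siGATA2 arrays 3 and 4 lay close to the siControl arrays. CDKN2B-AS1, also called ANRIL and known to bind Polycomb proteins at the INK4 locus, differed by 0.30 (adjusted p = 0.243). MCM3AP-AS1 (-0.68), FOXD2-AS1 (-0.48), ZEB1-AS1 (-0.29), HOXA-AS3 (0.21) and DLX6-AS1 (0.79) had adjusted p-values from 0.0929 to 0.793.

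GATA3-AS1 was the antisense gene of the GATA family among the members. It was near background, at 4.32, 3.91, 4.07 and 4.09 on siGATA2 arrays 1 to 4 and 3.38, 4.20, 4.47 and 3.32 on siControl arrays 1 to 4. The groups overlapped, 1 siControl array was above background, and the difference of 0.25 (standard error 0.276, limma adjusted p = 0.533) did not pass the test.

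Grouped by the sense gene, of 11 antisense genes of developmental transcription factors MNX1-AS1 was lower and 10 were not called, with a median difference of 0.12. Of 14 antisense genes of zinc finger genes, 2 were lower (ZBTB11-AS1 and ZNF674-AS1, -0.64) and 4 were higher (ZNF436-AS1, 0.86, ZNF566-AS1, 0.89, ZNF205-AS1, 1.01, and ZNF252P-AS1, which was above background on no siControl array), with a median of 0.27. Of 8 antisense genes of cell cycle, replication and repair genes, TMPO-AS1 was lower and KIF9-AS1 (0.89) higher. Their 8 sense genes had 4 falls and 2 rises. Of 8 antisense genes of transporters and channels, KCNIP2-AS1 was lower and SLCO4A1-AS1 (0.46) higher. Of 5 at genes of ribosomal proteins and the proteasome, PSMA3-AS1 (0.78), at a gene of a proteasome subunit, and MRPL20-AS1 (0.86), at a gene of a mitochondrial ribosomal protein, were higher, and of 3 at adhesion and cytoskeleton genes COL18A1-AS1 was higher. These lists are small, and their shares were not compared with the 14.7% and 13.0% of all genes by a test.

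Other noncoding RNAs on the array were counted by the same rules, with no test. Above background on all 8 arrays were 115 LINC genes, 15 of them lower (13%) and 14 higher (12.2%), and 34 divergent transcripts, whose names end in -DT, 3 of them lower (8.82%) and 10 higher (29.4%). Host genes of small RNAs had the most falls for their number, with 12 of 28 lower (42.9%) and 4 higher. Of 9 intronic or overlapping transcripts 2 were lower and 0 higher by limma. Protein-coding genes were lower in 23.4% and higher in 17.4% of cases. The antisense genes stood at 15.3% and 17.6%, and these shares were not compared by a test.

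**Figure D4:**
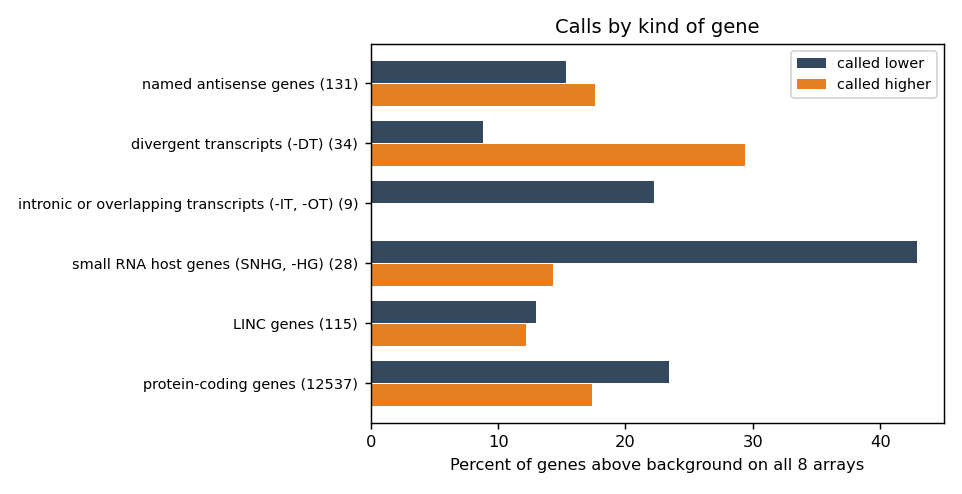
Percent of genes called lower and called higher (adjusted p under 0.05 from limma) among genes above background on all 8 arrays, by kind of gene, with the number of genes in brackets. Antisense genes had 15.3% lower and 17.6% higher, protein-coding genes 23.4% and 17.4%, and small RNA host genes 42.9% and 14.3%.

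For 193 of the antisense genes the sense gene was tested too, which gave 193 pairs with 192 sense genes. Of the sense genes, 35 were lower (18.2%) and 41 higher (21.4%). Among all genes above background on at least 4 arrays the shares were 14.7% and 13.0%, and among protein-coding genes by that detection 20.1% and 15.9%. The sense genes themselves were not chosen by the number of arrays above background. With E1A spike-in scaling 16 sense genes were lower and 1 higher, and with siGATA2 pairs averaged 22 were higher. In 14 pairs both genes were called in the same direction, 4 of them lower and 10 higher, and in 10 pairs they were called in opposite directions. In 8 pairs the antisense gene was lower and the sense gene not called, and in 24 it was higher and the sense gene not called. In 53 pairs only the sense gene was called. Across the 193 pairs, the differences of antisense and sense gene had a Pearson correlation of -0.03 and a Spearman correlation of -0.04, and across the 108 pairs with both genes above background on all arrays 0.08 and 0.03. All pairs were measured on the same 8 arrays, and these correlations across genes describe them without a test.

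In the 131 pairs whose strands are given in RefSeq (GRCh38.p14), the antisense gene lay on the other strand from the sense gene in every pair, and the genes overlapped in 105. The starts were within 1 kb of each other in 54 pairs. There the sense gene was higher in 21 pairs and lower in 7, and the antisense gene higher in 11 and lower in 9. In the 77 pairs with starts farther apart the sense gene was higher in 8 and lower in 19, and the antisense gene higher in 13 and lower in 7. The correlation of differences was 0.27 (Spearman 0.15) within 1 kb and -0.16 (Spearman -0.08) beyond it, a description of n = 54 and n = 77 pairs with no test. Of the pairs with near starts, 8 were called in the same direction and 5 in opposite directions. All these counts stand beside the 14.7% lower and 13.0% higher of all genes, and those of sense genes beside the 20.1% and 15.9% of protein-coding genes. The near and far pairs were not compared by a test. The rises depend on the scaling, since with spike-in scaling 1 sense gene and 3 antisense genes were called higher in all.

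**Figure D5:**
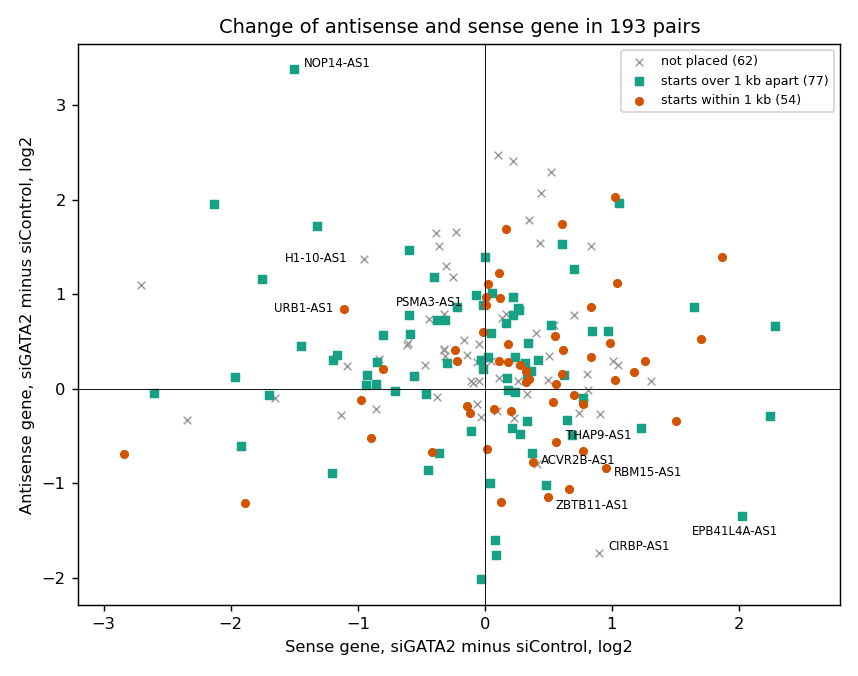
Difference in log2 signal, siGATA2 minus siControl, of the antisense gene against that of the sense gene in 193 pairs, with symbols for the distance between the starts; the 10 pairs called in opposite directions are labelled. The correlation across the points was -0.03, and NOP14-AS1 (3.38, with NOP14 at -1.5) lies farthest into a corner of opposite signs.

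The 10 opposite pairs were described through the difference between antisense and sense gene on each array. An exact two-sided permutation test over the 8 arrays compared this difference between the groups for all 193 pairs. It reached its smallest possible p of 0.0286, unadjusted, in 83 pairs (43%), in a data set where 32.5% of single genes did not overlap, so that it does not single out a pair. With siGATA2 pairs averaged the smallest p this test can give is 0.0667. For the pairs called in opposite directions the choice of the pairs fixes its outcome, and their differences are given with no test. The antisense gene was higher and the sense gene lower in NOP14, H1-10, URB1 and PSMA3. NOP14, a factor of small ribosomal subunit assembly, had log2 signals of 12.62, 12.43, 12.57 and 12.60 on siGATA2 arrays 1 to 4 and 13.95, 14.20, 14.02 and 14.06 on siControl arrays 1 to 4, with a difference of -1.5 (standard error 0.101, limma adjusted p = 4.5e-05). NOP14-AS1 was 6.48, 6.26, 5.63 and 5.96 against 1.79, 3.79, 1.74 and 3.49, with 1 siControl array above background. Its difference of 3.38, or 2.44 with siControl arrays 2 and 4 alone, therefore rests on siControl values most of which are not measured signal.

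URB1, a nucleolar protein of large ribosomal subunit assembly, and URB1-AS1 share the start region printed above. URB1-AS1 was 12.82, 12.90, 13.07 and 13.11 on siGATA2 arrays 1 to 4 and 12.12, 12.18, 12.15 and 12.08 on siControl arrays 1 to 4, a rise of 0.84 (standard error 0.103, limma adjusted p = 0.000696). URB1 was 10.52, 10.38, 9.76 and 9.85 against 11.17, 11.25, 11.25 and 11.29, a fall of 1.11 on the same scale (adjusted p = 0.00335). The arrays with the higher URB1-AS1 signal, siGATA2 3 and 4, were those with the lower URB1 signal. H1-10, a linker histone gene, fell (-0.95) where H1-10-AS1 rose (1.37). PSMA3, a subunit of the proteasome core, fell (-0.60) where PSMA3-AS1 rose (0.78), at 9.74, 9.80, 9.66 and 9.68 against 9.15, 8.95, 8.76 and 8.92.

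The antisense gene was lower and the sense gene higher in CIRBP, EPB41L4A, ZBTB11, RBM15, THAP9 and ACVR2B. CIRBP was 14.74, 14.80, 15.18 and 15.11 on siGATA2 arrays 1 to 4 and 13.87, 14.18, 14.01 and 14.19 on siControl arrays 1 to 4, and rose by 0.90 (standard error 0.143, limma adjusted p = 0.00263), where CIRBP-AS1 fell by 1.73. The difference within this pair was -2.63, with standard deviations between arrays of 0.14 in siGATA2 and 0.0798 in siControl. EPB41L4A, of the band 4.1 family of membrane skeleton proteins, was 8.08, 8.17, 9.42 and 9.28 against 6.16, 7.02, 6.68 and 6.96, a rise of 2.03 (standard error 0.366, limma adjusted p = 0.00475), and its antisense gene, which lies inside it, fell by 1.35. RBM15, of the RNA methylation complex, rose (0.96) and RBM15-AS1 fell (-0.84), a gene near background that was detected on 2 siControl and 3 siGATA2 arrays. THAP9 (0.56), ZBTB11 (0.50) and ACVR2B (0.38) rose by less. Under spike-in scaling ZBTB11 had -0.14 and ACVR2B -0.14, so that these 2 sense genes were not opposite in sign to their antisense genes, and THAP9 had 0.01, while the antisense genes of all 10 pairs and the other 7 sense genes kept the directions given.

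Pairs that moved together included DICER1, TMPO, NIFK, ZBED5, MNX1 and LPP. DICER1 rose more (1.87) than DICER1-AS1, with log2 signals of 13.04, 13.10, 13.51 and 13.64 on siGATA2 arrays 1 to 4 and 11.31, 11.71, 11.39 and 11.39 on siControl arrays 1 to 4, and the difference within the pair did not pass the exact test (-0.47, p = 0.257). ZBED5 (1.04) and ZBED5-AS1 (1.11), which start head to head, rose by nearly the same amount (difference 0.08, exact p = 0.743). TMPO, which encodes nuclear lamina proteins, fell by 1.89 and TMPO-AS1 by 1.20. TMPO-AS1 was 6.06, 6.29, 5.91 and 6.11 against 7.08, 7.38, 7.38 and 7.36, and siControl array 1 was the lowest of its group for both genes. NIFK, a nucleolar partner of the Ki-67 protein, fell by 1.21 and NIFK-AS1 by 0.89.

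In other named pairs a single gene was called. KTN1-AS1, which shares the start region printed above with the gene of the kinesin receptor kinectin, was 8.06, 8.07, 8.80 and 8.74 on siGATA2 arrays 1 to 4 and 9.52, 9.64, 9.72 and 9.59 on siControl arrays 1 to 4, while KTN1 had a difference of 0.12 (adjusted p = 0.562). The difference within the pair was -1.32. PDCD4 (0.08), VPS9D1 (0.09), FBXL19 (0.16), BCL10 (0.03) and DLG5 (-0.25) did not pass the test where their antisense genes did, and the differences within these 5 pairs ran from -1.85 in VPS9D1 to 1.52 in FBXL19. In KCNIP2 the sense gene was above background on 3 arrays only. Pairs in which the sense gene alone was called included MCM3AP, ZEB1 and OIP5. MCM3AP rose by 0.37 (limma adjusted p = 0.0301) where MCM3AP-AS1 had -0.68. ZEB1, above background on 7 arrays, rose by 2.25 (limma adjusted p = 0.043) where ZEB1-AS1 had -0.29. OIP5, which takes part in the loading of the centromere histone, fell by 1.92 where OIP5-AS1 had -0.60 (difference within the pair 1.32).

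SRRM2-AS1, in the third start region printed, varied between arrays much as its sense gene did. SRRM2, a scaffold of nuclear speckles, was 16.24, 16.19, 15.05 and 15.17 on siGATA2 arrays 1 to 4 and 15.55, 14.90, 14.84 and 14.94 on siControl arrays 1 to 4. Both genes were highest on siGATA2 arrays 1 and 2, and siControl array 1 was the highest of its group. This pattern was not particular to the pair, since ASMTL-AS1, GABPB1-AS1, RHPN1 and MZF1 had it too. LPP-AS2, by contrast, was lower on siGATA2 arrays 1 and 2 than on the other siGATA2 arrays. Whether SRRM2-AS1 and SRRM2 are coupled was not tested. SRRM2 itself was not called (0.61, adjusted p = 0.217). Taken as the difference within the pair, the spread between siGATA2 arrays was 0.0745 on the log2 scale, against 0.628 for SRRM2-AS1 alone, and the difference between groups was 1.13.

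Several probes were measured for 46 of the antisense genes. In 7 of those called by their brightest probe another probe was above background on all arrays, and its direction was the same in 4 and not in 3, which were VPS9D1-AS1, FBXL19-AS1 and HLA-F-AS1. In 4 genes not called by the brightest probe, ERCC6L2-AS1, SNAI3-AS1, TTC28-AS1 and ZNF407-AS1, another probe above background on all arrays was called. In SNAI3-AS1 the brightest probe had -0.15 and the 3 others 0.53, 0.53 and 1.06. In TTC28-AS1 the brightest had 0.58 and 2 others -1.21 and -1.29. For these genes the sign depends on the probe, and the transcript that each probe detects was not analysed here.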

How the data were processed

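RNA of LNCaP cells was labelled and hybridised to 8 one-colour Agilent arrays, 4 per group, grouped by the source names of the labels. The authors deposited the spot intensity and quality flags of Agilent Feature Extraction (version 11.0.1.1 per the submitters' processing notes) and a matrix of log2 values that serves here as an alternative. The array files name a different array design from the methods and the build hg19.

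Processed signals were log2-transformed, averaged over unflagged spots and quantile-normalized. Of 42405 probes, 26364 were named through RefSeq (GRCh38.p14), 1914 without annotation and those with a mean under 3 were removed. For a gene with several probes the brightest was used. Groups were compared with limma 3.58.1 in R 4.3.3 over 28876 genes with Benjamini-Hochberg adjustment. A check of the fit on simulated data drew every array independently, so it says nothing about p-values when arrays come in close pairs. Called means an adjusted p under 0.05, and differences are siGATA2 minus siControl on the log2 scale. limma stands in for the t-test of the methods. Named are the GATA family, 12 antisense RNAs with published roles, the 10 largest falls and rises among called genes above background on all 8 arrays without overlap, the opposite pairs, and the sense genes of all these. Other genes named were chosen after their values were seen. A few genes meeting this rule are not reported here. The members and lists were chosen with earlier results of these data known. All arrays lay on 1 slide. Precision is limited by the 4 arrays per group. Alternatives covered the scaling, background correction, filters, probes, test, blocks, array weights and samples.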

Additional observations from a re-analysis of the deposited data

Results flagged for a closer look

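In 136 groups of 4 arrays, those of the named antisense genes and their sense genes, 10 held an array that lay apart from the other 3 of its group by Dixon's criterion, where chance gives about 1 in 20. On 7 occasions it was siControl array 1. There SPATA3-AS1 was 7.389, against 7.975 to 8.07 on the other siControl arrays, TMPO-AS1 7.082 against 7.358 to 7.383, and H1-10 11.01 against 11.54 to 11.63. SRRM2-AS1 was 11.7 against 10.74 to 10.87, SRRM2 15.55 against 14.84 to 14.94, ZMIZ1-AS1 10.83 against 9.533 to 9.753, and H1-10-AS1 8.858 against 8.387 to 8.448. In each of these 7 cases the value lay towards the siGATA2 arrays. On siControl array 3, HOXA-AS3 was 1.768 against 3.978 to 4.152, and ZBED5-AS1 13.4 against 13.21 to 13.23. FOXD2 was 7.364 on siGATA2 array 4, against 5.875 to 6.085 on the other siGATA2 arrays.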

How the results depend on the processing

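Under the alternatives, 0 of the 61 calls turned into a call in the other direction. With E1A spike-in scaling 8 antisense genes were lower and 3 higher, 3 of them higher by at least 2-fold, 16 sense genes were lower and 1 higher, and the median difference of the antisense genes was -0.28. Under this scaling MCM3AP (-0.26), ZBTB11 (-0.14), ASMTL (-0.26) and ACVR2B (-0.14) changed sign, none of them called there. Normexp correction gave 6 falls and 11 rises of at least 2-fold and a median of 0.10. Restricting the antisense genes to those above background on all 8 arrays gave 23 rises, 11 of them at least 2-fold, and restricting the probes tested gave 11 as well. A fold of 1.5 gave 18 falls and 35 rises. With slide row as a block 14 antisense genes were lower; a row held 3 siGATA2 arrays and 1 siControl array, the other the reverse. Within row 1 and within row 2 the median differences were 0.14 and 0.21, and with a group of 1 array in each row no call is drawn from them. With siControl arrays 2 and 4 only, chosen after the data were seen, the median was 0.14 and 44 of the 61 calls remained. With siGATA2 pairs averaged, also chosen afterwards, 13 antisense genes were lower and 16 higher, 12 of them by at least 2-fold, and 22 sense genes were higher. With near arrays averaged in both groups the counts of antisense and sense genes, by any fold and by at least 2-fold, were 0 by limma, which had 2 samples per group. Leaving out 1 array at a time gave 18 to 26 antisense genes lower and 28 to 40 higher. The replicate block gave 20 lower and 36 higher; the deviations of same-numbered arrays correlated at 0.52, -0.3, 0.16 and 0.18, so the numbers do not pair the arrays. The methods' t-test after Benjamini-Hochberg adjustment gave 21 lower and 34 higher. No other count of calls moved by over 1.5 times. The cause of these shifts was not tested. Signal over background limits what siControl arrays 1 and 3 can show.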
